A study of Mus musculus with 4 samples.

Results

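The spots of 2 region labels, Cortex OLF (olfactory cortex) and Cortex CTXsp (cortical subplate), were compared by their plaque marks in Visium spatial transcriptomes of the mouse brain. Visium captures the RNA of a tissue section on an array of barcoded spots, so that a spot holds a small area with parts of several cells of different types. Plaque spots were those marked as plaque, and unmarked spots were those marked neither as plaque nor as the neighbour of a plaque. Of 10549 spots in the series, 103 were plaque spots of these labels and 571 were their unmarked counterparts. Levels of 221 neighbour spots are given beside them. The marks occurred in 2 of 4 sections, and the 2 regions in those 2 sections make 4 comparisons. In Cortex OLF the plaque, neighbour and unmarked spots numbered 22, 49 and 224 in the 5xFAD-Dp16 section and 44, 89 and 158 in the 5xFAD section. In Cortex CTXsp they numbered 25, 48 and 129 in the 5xFAD-Dp16 section and 12, 35 and 60 in the 5xFAD section.

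All sections came from hemispheres of male mice aged 9 months, cut at 10 µm within bregma 1 to -2 mm, with 1 section for each genotype. The 5xFAD mouse carries mutant human genes of familial Alzheimer's disease driven by Thy1 regulatory elements, which act mainly in neurons, and it forms amyloid plaques. Dp16 mice carry an extra copy of the part of mouse chromosome 16 that corresponds to much of human chromosome 21, and the 5xFAD-Dp16 mouse carries both. The Dp16 section and the section of the wild-type C57BL/6J mouse held no plaque mark and serve as background, with 225 and 241 spots of Cortex OLF and 151 and 194 of Cortex CTXsp. How regions and plaques were marked is not stated in these sources. With 1 section per genotype and spots of a section sharing 1 animal, no test across animals was possible and no p-value is given. Barcodes name positions on the array, and 2271 of the 3164 distinct ones occurred in both sections with plaques. Intervals are exact 95% intervals that cover counting error only.

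Microglia, the resident macrophages of the brain, gather around amyloid plaques and take on a state marked by phagocytic receptors, lysosomal enzymes and secreted inhibitors of proteases. Sensing of lipids and debris by TREM2 with its adaptor TYROBP is known to be needed for much of that state, while genes such as P2ry12 and Tmem119 mark microglia at rest. Astrocytes near plaques are known to raise intermediate filament and acute-phase genes, and the complement protein C1q, made by microglia, is known to tag synapses.

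Depth was of the same order in both kinds of spot. The median count per plaque spot was between 14446 and 17187.5 UMIs over the 4 comparisons, against 11380.5 to 16740.5 UMIs in unmarked spots. The gap was widest in Cortex CTXsp of 5xFAD, at 16749 UMIs in plaque against 11380.5 UMIs in unmarked spots. The summed plaque spots held 198462 to 754283 UMIs. The smallest of those sums is that of Cortex CTXsp in 5xFAD, where single genes are least certain. Levels are UMIs per 1000000 in the summed spots of a kind (CPM), and ratios are log2 of plaque over unmarked CPM, with the counting interval in brackets. In bulk sums of spots, fewer cells of a type and less RNA per cell cannot be told apart. The region names were set against marker genes. Of 11 measured genes listed for piriform and olfactory cortex, 10 were higher in Cortex OLF than in the rest of the section in 5xFAD-Dp16 and 10 in 5xFAD. Lmo3, one of them, had 196 CPM in Cortex OLF against 43.1 CPM in the rest of the 5xFAD-Dp16 section. Of the same 11 genes, 8 were also higher in Cortex CTXsp than in the rest in each of these sections. Lmo3 had 140.2 CPM in Cortex CTXsp of 5xFAD-Dp16, so these genes were not particular to Cortex OLF. Between the labels, 9 of the 11 were higher in Cortex OLF than in Cortex CTXsp in 5xFAD-Dp16 and 8 in 5xFAD. Of 6 claustrum, endopiriform and subplate genes, 5 were higher in Cortex CTXsp than in the rest in 5xFAD-Dp16 and 3 in 5xFAD. Of 5 basolateral amygdala genes, 2 were higher in Cortex CTXsp than in the rest in 5xFAD-Dp16 and 3 in 5xFAD, among them Lypd1 with 628 CPM against 51.6 CPM in the rest of the 5xFAD-Dp16 section.

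Summed over the list of plaque-associated microglial genes, plaque spots held more transcripts than unmarked spots in 3 of the 4 comparisons. The difference was widest in Cortex CTXsp of the 5xFAD-Dp16 section. There the list summed to 16942 CPM in plaque spots against 10388 CPM in unmarked spots, a log2 ratio of 0.71 (0.67 to 0.75). In Cortex CTXsp of the 5xFAD section the summed list did not differ beyond counting error, at 9689.5 against 9709 CPM. A sum weighs members by their abundance, and the list includes the ferritin gene Fth1, which had a ratio of -0.12 there. The same list summed to 8391 CPM in that region of Dp16 and 7361 CPM in wild-type. Much of the sum is thus present without plaques, and single members can differ where the sum does not. Genes were counted where their mean over the plaque and unmarked sums reached 20 CPM. Of 6087 such genes, 13 (0.214%) had ratios of 1.5-fold or more in favour of plaque spots in all 4 comparisons. By rank these were Cd52, Cst7, Arpc1b, Siglech, Laptm5, Ly86, Tyrobp, Aif1, Npc2, Mpeg1, Mfap3l, Crlf2 and Gusb. Most of them are known from microglia and other macrophages or from lysosomes, among them the lectin gene Siglech, the pore-forming protein gene Mpeg1, the calcium-binding protein gene Aif1, the glucuronidase gene Gusb and the lysosomal cholesterol carrier gene Npc2. The counting interval lay above 0 in all 4 comparisons for Cst7, Tyrobp, Cd52 and Npc2, and in 1 or more comparisons it reached 0 for each of the other 9. In the other direction, 10 genes (0.164%) were lower by that fold in all 4, and 541 (8.89%) by any amount. These 4 comparisons share no spots, but the 2 regions of a section share its animal and its library.

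Past the same fold in 1 region and both sections, 70 genes were higher in plaque spots of Cortex OLF (1.15%) and 49 were lower (0.805%). In Cortex CTXsp 117 genes were higher (1.92%) and 227 lower (3.73%). Taken 1 comparison at a time, the share of genes past the fold grew as the plaque sums became smaller. In Cortex OLF 7.62% were higher and 6.60% lower in 5xFAD-Dp16, and 3.83% were higher and 5.09% lower in 5xFAD. In Cortex CTXsp 8.0% were higher and 13.3% lower in 5xFAD-Dp16, and 11.5% were higher and 17.6% lower in 5xFAD. The counting interval lay above 0 for 8.92% and below 0 for 4.09% of genes in Cortex OLF of 5xFAD-Dp16, and for 5.31% and 6.23% in Cortex OLF of 5xFAD. For Cortex CTXsp these shares were 5.59% and 6.31% in 5xFAD-Dp16 and 2.84% and 3.79% in 5xFAD, so most fold differences of the last comparison did not exceed counting error.

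Tyrobp (chromosome 7, 30413782 to 30417582, RefSeq GRCm38.p6) encodes the adaptor that carries the TREM2 signal. In Cortex OLF it stood at 553 CPM in plaque spots against 156 CPM in unmarked spots of 5xFAD-Dp16, a log2 ratio of 1.82 (1.61 to 2.04). The 5xFAD section had 611 CPM in plaque spots against 203 CPM, a ratio of 1.59 (1.40 to 1.77). Cortex CTXsp gave the widest and the narrowest gap. There Tyrobp reached 1059 CPM in plaque spots of 5xFAD-Dp16 against 160.1 CPM in unmarked spots, a ratio of 2.73 (2.51 to 2.95). In 5xFAD it had 368 CPM against 205 CPM, a ratio of 0.85 (0.42 to 1.26). Every unmarked group was above the sections without plaques, where Tyrobp had 77.6 CPM in Cortex OLF and 101 CPM in Cortex CTXsp of Dp16, and 97.8 and 89.4 CPM in the same regions of wild-type.

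Cst7 (chromosome 2, 150570415 to 150578944), which encodes an inhibitor of lysosomal cathepsins, was found within these labels in the sections with plaques alone. It had no UMI in any of the 811 spots of these labels in Dp16 and wild-type. Plaque spots of Cortex OLF held 140.3 CPM against 18.7 CPM in unmarked spots of 5xFAD-Dp16, and 146 CPM against 25.8 CPM in 5xFAD. The ratios were 2.91 (2.41 to 3.41) in 5xFAD-Dp16 and 2.50 (2.04 to 2.96) in 5xFAD. In Cortex CTXsp plaque spots held 245 CPM against 11.6 CPM in 5xFAD-Dp16, a ratio of 4.40 (3.71 to 5.16). With 14 UMIs in the sum, plaque spots of the 5xFAD section held 70.5 CPM against 26.5 CPM, a ratio of 1.41 (0.31 to 2.49).

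Trem2, the receptor gene upstream of Tyrobp, was past the fold in 3 of the 4 comparisons. It was higher in plaque spots of Cortex OLF, at 147 CPM against 32.2 CPM in 5xFAD-Dp16 and 163 CPM against 44.5 CPM in 5xFAD. In Cortex CTXsp it had 273 CPM in plaque spots against 30.4 CPM in 5xFAD-Dp16, a ratio of 3.17 (2.69 to 3.67). Plaque spots of Cortex CTXsp in 5xFAD had 50.4 CPM against 61.3 CPM, a ratio of -0.28 (-1.44 to 0.73) whose interval spans 0. Cd52, a surface glycoprotein gene of leukocytes, was higher in plaque spots in every comparison, with ratios of 1.77 (1.15 to 2.36) and 1.96 (1.41 to 2.50) in Cortex OLF of 5xFAD-Dp16 and 5xFAD. Its ratios in Cortex CTXsp were 3.09 (2.55 to 3.65) in 5xFAD-Dp16 and 1.85 (0.80 to 2.91) in 5xFAD.

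**Figure D1:**
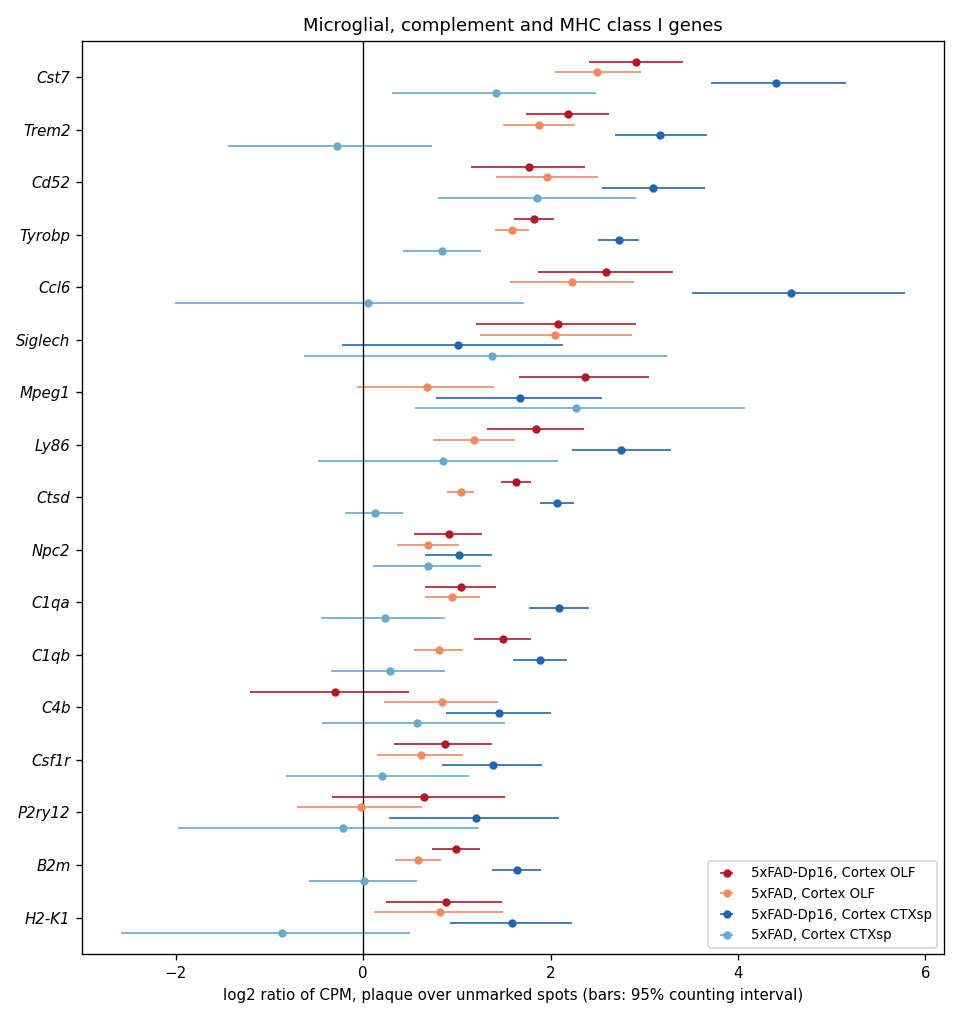
Log2 ratios of CPM of plaque over unmarked spots (x axis) for 17 microglial, complement and MHC class I genes (y axis), with 95% counting intervals, in Cortex OLF (red) and Cortex CTXsp (blue) of the 5xFAD-Dp16 section (dark) and the 5xFAD section (light). The dark blue points of Cortex CTXsp in 5xFAD-Dp16 lie farthest right for most genes (Tyrobp at 2.73), and the light blue intervals of Cortex CTXsp in 5xFAD are the widest.

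Over the whole list of plaque-associated microglial genes, 33 of 52 members were at the 20 CPM minimum, and 25 reached it by their level in unmarked spots alone. The minimum was set on plaque and unmarked sums together, so a member can pass it because it is high in plaque spots. Such members tend to be higher by selection, and the medians and counts of the list include them. The same applies to other lists below. By unmarked spots alone, 23 lysosome, 9 homeostatic, 3 MHC and 3 reactive astrocyte genes reached it, against 25, 11, 4 and 4 used. The median log2 ratio of the 33 was 1.00 in Cortex OLF of 5xFAD-Dp16, 0.93 in Cortex OLF of 5xFAD, 1.67 in Cortex CTXsp of 5xFAD-Dp16 and 0.10 in Cortex CTXsp of 5xFAD. The medians of all genes were 0.06, -0.03, -0.06 and -0.05 in the same order. At least 1.5-fold higher were 23, 23, 29 and 10 members, against the 7.62, 3.83, 8.0 and 11.5% of all genes given above. By the counting interval 24, 27, 28 and 5 of them were higher and 0, 1, 0 and 1 lower. Of the 33 members, 20 passed the fold in both sections of Cortex OLF and 10 in both sections of Cortex CTXsp, and 17 were higher by any amount in all 4 comparisons, as were 6.95% of all genes. This list was drawn up from what is known of plaque microglia and with earlier results of these sections in view, so its direction is a description.

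Secreted and lysosomal products of microglia made up much of the list. Ctsd, the lysosomal protease cathepsin D, stood at 1261 CPM in plaque spots against 301 CPM in unmarked spots of Cortex CTXsp in 5xFAD-Dp16, and at 569 CPM against 524 CPM in 5xFAD, with ratios of 2.07 (1.89 to 2.25) and 0.12 (-0.20 to 0.43). Ctss, cathepsin S, had ratios of 1.20 (0.87 to 1.52) and 1.07 (0.79 to 1.35) in Cortex OLF of 5xFAD-Dp16 and 5xFAD. In Cortex CTXsp its ratios were 2.07 (1.74 to 2.40) in 5xFAD-Dp16 and 0.02 (-0.68 to 0.68) in 5xFAD. Lyz2 (lysozyme), Ctsz (cathepsin X) and the chemokine gene Ccl6 were among the genes named for Cortex OLF. Their ratios there were 1.70, 1.73 and 2.59 in 5xFAD-Dp16 and 1.56, 1.52 and 2.22 in 5xFAD. In Cortex CTXsp of 5xFAD-Dp16 the same 3 genes had ratios of 2.58, 1.92 and 4.56, and in 5xFAD ratios of -0.15, 0.00 and 0.05 with intervals that span 0.

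The wider lysosome list of 25 measured genes had medians of 0.62 and 0.54 in Cortex OLF of 5xFAD-Dp16 and 5xFAD, and of 0.83 and -0.02 in Cortex CTXsp of the same sections. Past the fold 13, 11, 16 and 5 of the 25 were higher, in that order of comparisons, against 7.62, 3.83, 8.0 and 11.5% of all genes. In Cortex OLF of 5xFAD-Dp16 the lysosome median was 0.25 without the highest plaque spot, which is described below, and 0.22 when unmarked spots were weighted by expression cluster. Cathepsin B (Ctsb), the most widely expressed of the named proteases, had smaller ratios, at 0.50 and 0.41 in Cortex OLF and 0.76 and -0.24 in Cortex CTXsp of 5xFAD-Dp16 and 5xFAD.

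Complement genes were higher in the same 3 comparisons. All 4 measured members were at least 1.5-fold higher in plaque spots of Cortex OLF in 5xFAD and of Cortex CTXsp in 5xFAD-Dp16. In Cortex OLF of 5xFAD-Dp16 3 were, and in Cortex CTXsp of 5xFAD none was. The shares of all genes were 3.83, 8.0, 7.62 and 11.5% in this order. C1qa, a chain of C1q, had 411 CPM in plaque spots against 96.6 CPM in unmarked spots of Cortex CTXsp in 5xFAD-Dp16, a ratio of 2.09 (1.77 to 2.41). In the other comparisons C1qa had ratios of 1.04 (0.66 to 1.41) in Cortex OLF of 5xFAD-Dp16, 0.95 (0.65 to 1.24) in Cortex OLF of 5xFAD and 0.23 (-0.45 to 0.88) in Cortex CTXsp of 5xFAD. The other chains lay close to it, with C1qb at 1.49, 0.81, 1.89 and 0.29 and C1qc at 1.26, 1.00, 1.72 and 0.24 in the same order as the medians above. C4b, a downstream component of the classical pathway made in the brain largely by glia, was the exception in Cortex OLF of 5xFAD-Dp16, with 30.2 CPM in plaque spots against 37.3 CPM, a ratio of -0.30 (-1.21 to 0.49). Its ratios were 0.84 (0.22 to 1.44) in Cortex OLF of 5xFAD, 1.45 (0.89 to 2.00) in Cortex CTXsp of 5xFAD-Dp16 and 0.57 (-0.44 to 1.51) in Cortex CTXsp of 5xFAD.

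Of the MHC and antigen presentation list only 4 genes were measured, with medians of 0.50 and 0.61 in Cortex OLF and 1.61 and 0.30 in Cortex CTXsp of 5xFAD-Dp16 and 5xFAD. B2m, which encodes the invariant chain of MHC class I, stood at 541 CPM in plaque spots against 174 CPM in unmarked spots of Cortex CTXsp in 5xFAD-Dp16, a ratio of 1.64 (1.38 to 1.89). In 5xFAD the same region had 171 CPM against 169.9 CPM, a ratio of 0.01 (-0.58 to 0.57). H2-K1, a class I heavy chain gene, had ratios of 0.89 (0.24 to 1.48) and 0.82 (0.11 to 1.49) in Cortex OLF of 5xFAD-Dp16 and 5xFAD, 1.58 (0.93 to 2.22) in Cortex CTXsp of 5xFAD-Dp16 and -0.87 (-2.58 to 0.50) in Cortex CTXsp of 5xFAD. The class II chaperone gene Cd74 reached 74.0 CPM against 6.62 CPM in Cortex CTXsp of 5xFAD-Dp16, a ratio of 3.48 (2.47 to 4.59), and its intervals spanned 0 in the other 3. Class I genes have near-identical paralogs, so the split of counts between H2-K1 and H2-D1 is uncertain. The 5 measured interferon-stimulated genes had medians of -0.02, 0.22, 0.46 and -0.02 in Cortex OLF of 5xFAD-Dp16 and 5xFAD and Cortex CTXsp of 5xFAD-Dp16 and 5xFAD.

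Genes of resting microglia had medians above 0 in the 4 comparisons, and below that of the plaque-associated list in 3 of them. The 11 measured members of the homeostatic list had medians of 0.92, 0.48, 1.02 and 0.23 in that order. Of them 8, 5, 8 and 3 passed the fold upward, against 7.62, 3.83, 8.0 and 11.5% of all genes. None was lower by the fold in any comparison, against 6.60, 5.09, 13.3 and 17.6% of all genes. At those shares few or none of 11 genes would be lower. Weighted by cluster the medians were 0.00, 0.23, 0.75 and 0.39. The summed list in Cortex CTXsp of 5xFAD stood at 5104 CPM in plaque spots against 5249 CPM in unmarked spots. Csf1r, the receptor for the growth factor on which microglia depend, had ratios of 0.87 (0.33 to 1.38), 0.61 (0.15 to 1.06), 1.38 (0.84 to 1.91) and 0.20 (-0.83 to 1.13). P2ry12, the purine receptor of resting microglia, was detected thinly, with 13, 26, 17 and 5 UMIs in the plaque sums. Its ratio was 1.21 (0.28 to 2.09) in Cortex CTXsp of 5xFAD-Dp16 and spanned 0 elsewhere. Tmem119, with 1 to 9 UMIs in the plaque sums, showed no difference beyond counting error. The fractalkine receptor gene Cx3cr1 exceeded it in Cortex CTXsp of 5xFAD-Dp16 alone, with a ratio of 1.62 (0.54 to 2.67).

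The plaque spots of a group were not alike. The summed CPM of 6 microglial genes (Cst7, Itgax, Trem2, Tyrobp, Ccl3 and Cd68) was taken for each spot. Its values in Cortex CTXsp of 5xFAD-Dp16 ran between 304 and 6502 CPM with a median of 1177 CPM in plaque spots, against a median of 160.2 and a highest value of 1637 CPM in unmarked spots. No plaque spot of that group was below the unmarked median, 21 of 25 (84.0%, 63.9 to 95.5%) were above the 90th percentile of unmarked spots, and 11 were above all of them. The other 3 groups overlapped widely with their unmarked spots. The medians were 423 CPM in plaque against 182 CPM in unmarked spots of Cortex OLF in 5xFAD-Dp16, 644 against 227 CPM of Cortex OLF in 5xFAD and 483 against 233 CPM of Cortex CTXsp in 5xFAD. Above the 90th percentile were 11 of 22, 21 of 44 and 5 of 12 plaque spots, while 7, 9 and 2 lay below the unmarked median.

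**Figure D2:**
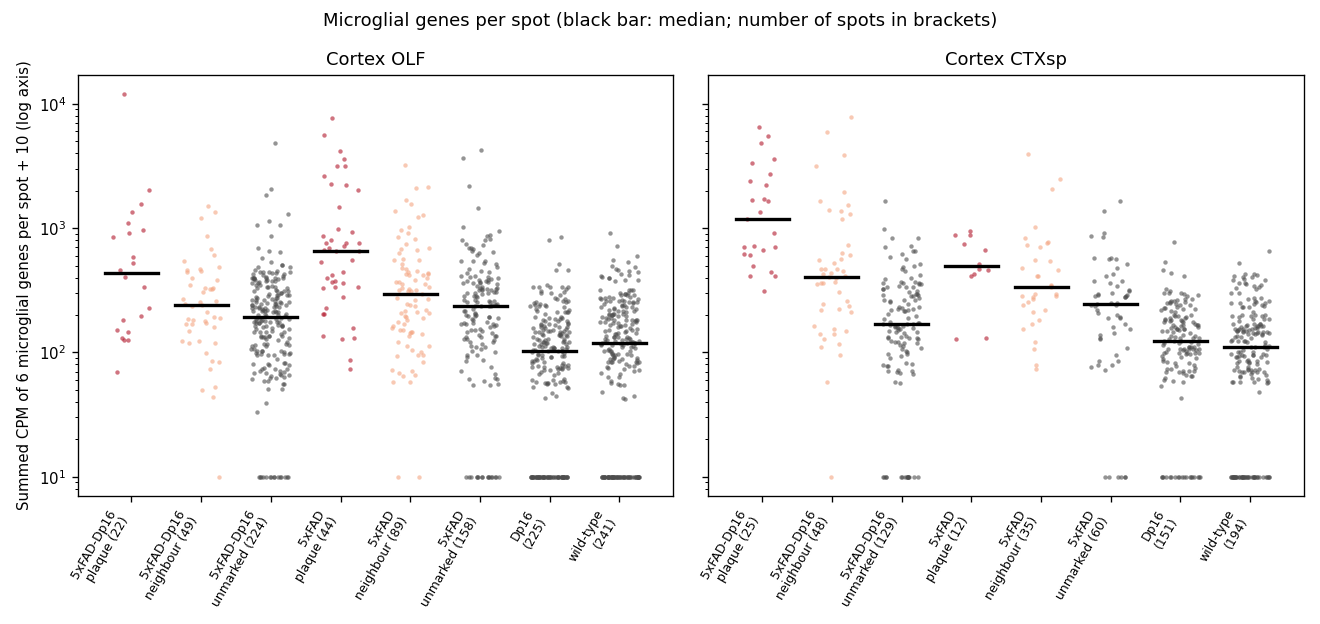
Summed CPM of 6 microglial genes in each spot, plus 10 so that spots without a UMI can be drawn (y axis, log scale), by kind of spot and section (x axis) in Cortex OLF (left) and Cortex CTXsp (right), with a bar at the median. Plaque spots of Cortex CTXsp in 5xFAD-Dp16 have the highest median (1177 CPM before the 10 is added), and 1 plaque spot of Cortex OLF in 5xFAD-Dp16 stands alone at 11995 CPM.

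A single spot carried much of the signal in Cortex OLF of 5xFAD-Dp16. It held 45.9% of the UMIs of the 6 genes among 22 plaque spots, 61.5% of those of Cst7, 41.8% of Tyrobp and 51.2% of Ctsd. Without it the list median there was 0.50 in place of 1.00, the complement median 0.31 in place of 1.15, and the homeostatic median 0.07 in place of 0.92. Cst7 then had a ratio of 1.58, Tyrobp 1.09 and Ctsd 0.65, while Laptm5 was at -0.09, Arpc1b at 0.05 and Gusb at 0.13. In the other 3 groups the highest spot held 15.4% (Cortex OLF, 5xFAD), 19.1% (Cortex CTXsp, 5xFAD-Dp16) and 15.1% (Cortex CTXsp, 5xFAD) of the 6 genes, and the list medians without it were 0.81, 1.60 and 0.17.

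Spp1, the gene of the secreted phosphoprotein osteopontin, was the most uneven. In Cortex CTXsp of 5xFAD-Dp16 it had 403 CPM in plaque spots against 9.38 CPM in unmarked spots, a ratio of 5.43 (4.70 to 6.24), but 1 spot held 88.6% of its plaque UMIs and the median over plaque spots was 0 CPM. Without that spot the ratio was 2.37. In Cortex OLF Spp1 had 8.64 CPM against 21.2 CPM in 5xFAD-Dp16, a ratio of -1.30 (-3.21 to 0.11), and 27.8 CPM against 12.7 CPM in 5xFAD, a ratio of 1.13 (0.26 to 1.97). Itgax, an integrin gene of plaque microglia and dendritic cells, and Ccl3, a chemokine gene, were scarce throughout. The most Itgax UMIs in a plaque sum were 13, in Cortex OLF of 5xFAD, and Cortex CTXsp of 5xFAD had 0 in plaque and 2 in unmarked spots, too few for a ratio. Ccl3 had 53.6 CPM against 2.76 CPM in Cortex CTXsp of 5xFAD-Dp16, a ratio of 4.28 (2.83 to 6.04), and 5 against 2 UMIs in Cortex CTXsp of 5xFAD, a ratio of 3.18 (0.57 to 6.57).

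At matched depth Cst7 was found in a larger share of plaque than of unmarked spots in each comparison. Each spot was thinned to 5000 UMIs, and Cst7 was then found in 4 of 22 (18.2%, 5.19 to 40.3%) plaque spots against 14 of 220 (6.36%, 3.52 to 10.4%) unmarked spots of Cortex OLF in 5xFAD-Dp16. In 5xFAD it was found in 16 of 44 (36.4%, 22.4 to 52.2%) against 12 of 151 (7.95%, 4.17 to 13.5%). In Cortex CTXsp the shares were 8 of 25 (32.0%, 14.9 to 53.5%) against 6 of 129 (4.65%, 1.73 to 9.85%) in 5xFAD-Dp16 and 2 of 12 (16.7%, 2.09 to 48.4%) against 4 of 59 (6.78%, 1.88 to 16.5%) in 5xFAD. The intervals of the plaque and unmarked shares overlap in Cortex OLF of 5xFAD-Dp16 and in Cortex CTXsp of 5xFAD. Sections without plaques set the background, with Cst7 in 0 of 208 (which allows a share of up to 1.44%) and 0 of 212 (which allows a share of up to 1.42%) thinned spots of Cortex OLF in Dp16 and wild-type. These limits are 3 spots of the total, and the exact intervals used for the other shares reach 1.76 and 1.72%. Before thinning, 59.1, 56.8, 88.0 and 58.3% of plaque spots held Cst7, against 18.8, 22.8, 10.9 and 16.7% of unmarked spots. Tyrobp is also made by microglia without plaques, and it was found in 69 of 191 (36.1%, 29.3 to 43.4%) thinned spots of Cortex CTXsp in wild-type. In that region of 5xFAD-Dp16 it was found in 25 of 25 (100%, 86.3 to 100%) plaque against 57 of 129 (44.2%, 35.5 to 53.2%) unmarked spots. In 5xFAD the counts there were 9 of 12 (42.8 to 94.5%) against 35 of 59 (45.7 to 71.9%). In Cortex OLF they were 16 of 22 (49.8 to 89.3%) against 104 of 220 (40.5 to 54.1%) in 5xFAD-Dp16. Cortex OLF of 5xFAD had 37 of 44 (69.9 to 93.4%) against 83 of 151 (46.7 to 63.1%). The Tyrobp intervals overlap in Cortex OLF of 5xFAD-Dp16 and in Cortex CTXsp of 5xFAD.

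For most plaque-associated microglial genes neighbour spots lay between the other kinds in 3 of the 4 groups. In Cortex CTXsp of 5xFAD-Dp16, 30 of the 33 plaque-associated microglial genes had plaque above neighbour above unmarked CPM, against 15.0% of all genes. The counts were 21 of 33 in Cortex OLF of 5xFAD-Dp16 (22.5% of all genes), 25 in Cortex OLF of 5xFAD (17.3%) and 10 in Cortex CTXsp of 5xFAD (16.8%). Neighbours over unmarked spots had list medians of 0.13, 0.20 and 0.14 in these 3 groups and 0.99 in Cortex CTXsp of 5xFAD-Dp16. The neighbours' median passed the 1.5-fold mark in that group alone of the 4. Tyrobp had 542 CPM and Cst7 137 CPM in those neighbour spots. The neighbours of Cortex CTXsp in 5xFAD were not below the plaque spots for several genes, with 80.0 CPM of Cst7 and 83.7 CPM of Trem2, against the plaque values of 70.5 and 50.4 CPM above.

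Gfap was higher in plaque spots in 3 of the 4 comparisons. Gfap, the intermediate filament gene of reactive astrocytes, had 217 CPM in plaque spots against 65.1 CPM in unmarked spots of Cortex CTXsp in 5xFAD-Dp16, a ratio of 1.74 (1.32 to 2.15). In Cortex CTXsp of 5xFAD it had 161 CPM against 90.5 CPM, a ratio of 0.83 (0.17 to 1.46). In Cortex OLF the sections differed in sign. There it was lower in plaque spots of 5xFAD-Dp16, with 56.1 CPM against 94.6 CPM and a ratio of -0.75 (-1.39 to -0.18), and higher in those of 5xFAD, with 145 CPM against 89.4 CPM and a ratio of 0.69 (0.35 to 1.03). The plaque-free regions had 16.0 to 49.8 CPM. Serpina3n, an acute-phase serine protease inhibitor gene, gave intervals that spanned 0 except in Cortex CTXsp of 5xFAD-Dp16, where the ratio was 1.40 (0.42 to 2.34). The 4 measured reactive astrocyte genes had medians of 0.03 and 0.28 in Cortex OLF and 1.10 and 0.79 in Cortex CTXsp of 5xFAD-Dp16 and 5xFAD. The 17 measured genes of astrocytes in general had medians of -0.21, -0.39, -0.01 and -0.11, and the water channel gene Aqp4 did not differ beyond counting error in any comparison.

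Apoe, the lipid carrier gene of astrocytes and plaque microglia, differed little in level. It had 2488 CPM in plaque spots against 1592 CPM in unmarked spots of Cortex CTXsp in 5xFAD-Dp16, a ratio of 0.64 (0.54 to 0.75), and 0.12 (-0.03 to 0.27) was its ratio there in 5xFAD. In Cortex OLF the ratios were -0.31 (-0.44 to -0.19) in 5xFAD-Dp16 and 0.15 (0.07 to 0.23) in 5xFAD. No Apoe ratio reached the 1.5-fold mark except that of Cortex CTXsp in 5xFAD-Dp16.

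**Figure D3:**
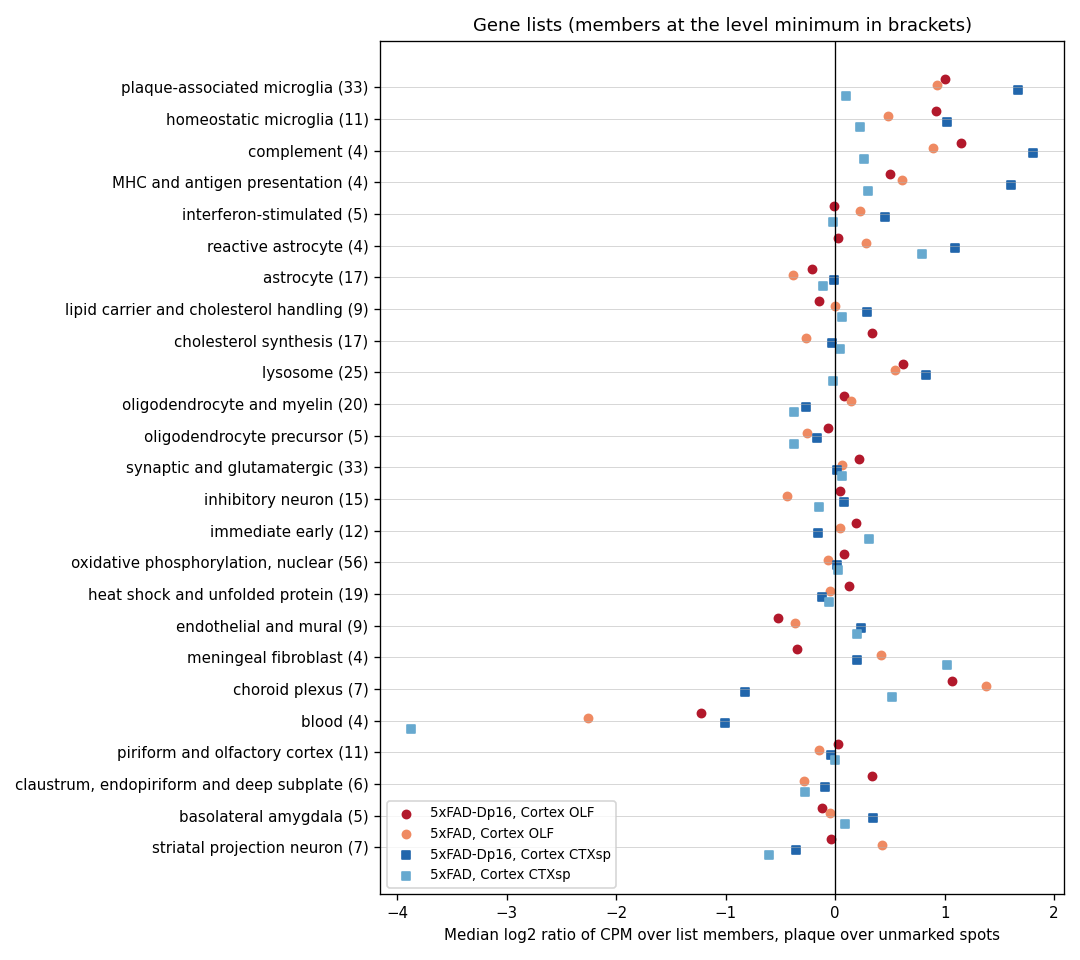
Median log2 ratio of CPM of plaque over unmarked spots (x axis) over the measured members of 25 gene lists (y axis, number of members in brackets), in Cortex OLF (red circles) and Cortex CTXsp (blue squares) of the 5xFAD-Dp16 section (dark) and the 5xFAD section (light). The microglial, complement and lysosome lists lie right of 0 in 3 or 4 comparisons, the blood list lies left of 0 in all 4, and the choroid plexus list differs in sign between the sections in Cortex CTXsp.

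Medians of the synaptic and respiratory chain lists lay close to the median of all genes, while Gad1 was lower in 3 of the 4 comparisons. The 33 measured synaptic and glutamatergic genes had medians of 0.22 and 0.06 in Cortex OLF and 0.02 and 0.07 in Cortex CTXsp of 5xFAD-Dp16 and 5xFAD. The sums of that list were slightly higher in plaque spots. In the same order the ratios of sums were 0.22 (0.18 to 0.26), 0.05 (0.01 to 0.08), 0.14 (0.08 to 0.20) and 0.08 (0.01 to 0.16). Of the 33 genes, 7 were higher by any amount in all 4 comparisons and 2 lower, against 6.95% and 8.89% of all genes. The medians of 56 nuclear-encoded respiratory chain genes were 0.08, -0.06, 0.02 and 0.03. None of the 56 was past the fold. They are abundant genes, with sums of 39126 to 47693 CPM in plaque spots over the 4 comparisons. The shares of all genes given above include genes near 20 CPM, which pass the fold by counting error more often. Slc17a7, the vesicular glutamate transporter gene of cortical excitatory neurons, had ratios of 0.22, 0.06, 0.45 and 0.06 in that order. Gad1, which makes the enzyme for GABA synthesis, had ratios of -0.57 (-0.98 to -0.18) and -0.47 (-0.78 to -0.16) in Cortex OLF and -0.68 (-1.11 to -0.28) in Cortex CTXsp of 5xFAD-Dp16, with -0.10 (-0.70 to 0.46) in Cortex CTXsp of 5xFAD. Weighted by cluster, as described below, its ratio in Cortex CTXsp of 5xFAD-Dp16 was 0.17.

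Thy1 (chromosome 9, 44043384 to 44048579), a surface glycoprotein gene of projection neurons, had more CPM in plaque spots in every comparison. Plaque spots of Cortex CTXsp held 2494 CPM against 766 CPM in unmarked spots of 5xFAD-Dp16, a ratio of 1.70 (1.58 to 1.82). In 5xFAD they held 2353 CPM against 1081 CPM, a ratio of 1.12 (0.95 to 1.29). Most plaque spots there were high, since the medians over spots were 2099 CPM in plaque against 551 CPM in unmarked spots of 5xFAD-Dp16 and 2399.5 against 698 CPM of 5xFAD. In Cortex OLF the ratio was 0.59 (0.51 to 0.67) in 5xFAD and 0.06 (-0.05 to 0.18) in 5xFAD-Dp16. Neighbour spots had 1669 to 2211 CPM over the 4 groups, and the plaque-free sections had 480.1 to 586 CPM. Thy1 elements drive the transgenes of these mice, and whether transgene transcripts add to the counts of Thy1 or App was not tested. App, the gene of the amyloid precursor protein, had ratios of 0.01 and 0.01 in Cortex OLF, 0.17 in Cortex CTXsp of 5xFAD-Dp16 and 0.45 (0.17 to 0.71) in Cortex CTXsp of 5xFAD.

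Of the 10 genes lower in all 4 comparisons, 6330403K07Rik (chromosome 11, 71031941 to 71033617) had the highest level. It had 268 CPM in plaque spots against 522 CPM in unmarked spots of Cortex OLF in 5xFAD-Dp16 and 269 CPM against 565 CPM in 5xFAD. In Cortex CTXsp it had 263 CPM against 669 CPM in 5xFAD-Dp16 and 212 CPM against 383 CPM in 5xFAD. The ratios in the same order were -0.96 (-1.24 to -0.70), -1.07 (-1.29 to -0.86), -1.35 (-1.65 to -1.06) and -0.86 (-1.36 to -0.38). Scg2, a secretogranin gene of dense-core vesicles, was lower too, with 58.7 CPM against 293 CPM in Cortex CTXsp of 5xFAD-Dp16 and ratios of -0.59, -1.06, -2.32 and -1.30. Pnoc (a neuropeptide precursor), Ngb (neuroglobin), Npy2r (a neuropeptide Y receptor), Epas1 (a hypoxia-inducible factor subunit) and Apod (an apolipoprotein of glia and vessels) made up the 10 with Scg2 and the haemoglobins Hba-a1, Hbb-bs and Hbb-bt. Several rested on few UMIs in some plaque sum, so that Pnoc, for example, had 1 UMI and a ratio of -1.95 (-7.35 to 0.76) in Cortex CTXsp of 5xFAD. On the high side, the neuronal secreted protein gene Tafa1 had ratios of 0.53 (0.10 to 0.93), 0.54 (0.15 to 0.92), 1.39 (0.55 to 2.20) and 1.40 (0.47 to 2.31). The perineuronal net gene Hapln4 had 0.77, 1.11, 1.26 and 0.58, and the N-glycan mannosidase gene Man1a 1.27, 0.55, 1.71 and 1.76.

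**Figure D4:**
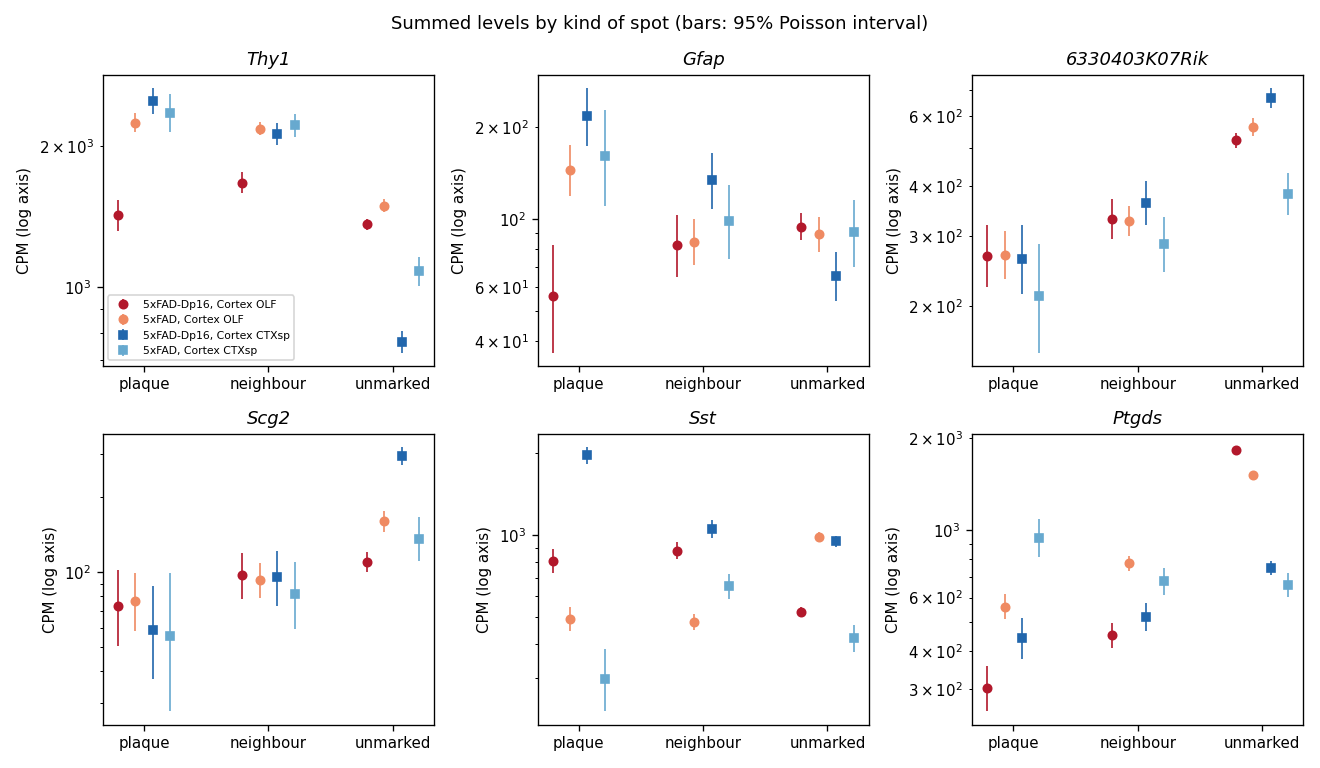
Summed CPM (y axis, log scale) of 6 genes in plaque, neighbour and unmarked spots (x axis) of Cortex OLF (red circles) and Cortex CTXsp (blue squares) in the 5xFAD-Dp16 section (dark) and the 5xFAD section (light), with 95% Poisson intervals. 6330403K07Rik and Scg2 are lower in plaque than in unmarked spots in all 4 comparisons, Thy1 is at 2494 and 2353 CPM in plaque spots of Cortex CTXsp, and Sst and Gfap differ in sign between sections in Cortex OLF.

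Genes of particular groups of neurons gave some of the widest ratios in Cortex CTXsp. Cartpt, a neuropeptide gene, had 7.66 CPM (3 UMIs) in plaque spots against 986 CPM in unmarked spots of 5xFAD-Dp16, a ratio of -7.01 (-9.29 to -5.46), and 55.4 CPM against 318 CPM in 5xFAD, a ratio of -2.52 (-3.54 to -1.65). The median unmarked spot had 0 CPM of Cartpt in both sections, and the highest had 9314 CPM in 5xFAD-Dp16 and 9248 CPM in 5xFAD. The matricellular gene Ccn2, a marker of deep cortical layers, had 2 UMIs in plaque spots and 37.0 CPM in unmarked spots of 5xFAD-Dp16, a ratio of -2.86 (-5.93 to -0.95), and 1 UMI and a ratio of -3.64 (-8.97 to -1.09) in 5xFAD. Higher in plaque spots of Cortex CTXsp were C1ql3, a synaptic organiser gene (2.79 and 1.55 in 5xFAD-Dp16 and 5xFAD), the protease inhibitor family gene Spink8 (2.45 and 1.62) and decorin, Dcn (1.67 and 1.55). Among the genes named as lowest in Cortex OLF were Ecel1, an endopeptidase family gene (-2.55 and -2.89), Ptgds, prostaglandin D synthase of meninges and glia (-2.60 and -1.43), and Agt, angiotensinogen of astrocytes (-1.61 and -1.61).

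The makeup of the spots differed along with the marks. The deposited expression clusters put 12 of 22 plaque spots against 49 of 224 unmarked spots of Cortex OLF in cluster 0 in 5xFAD-Dp16, and 35 of 44 against 67 of 158 in 5xFAD. In Cortex CTXsp cluster 0 took 13 of 25 plaque against 54 of 129 unmarked spots in 5xFAD-Dp16 and 11 of 12 against 44 of 60 in 5xFAD. Cluster 16 held none of the plaque spots, against 34 of 129 unmarked spots of Cortex CTXsp in 5xFAD-Dp16, and cluster 11 held 5 of 25 plaque spots and no unmarked spot there. Unmarked spots were therefore also weighted to the clusters of the plaque spots. This leaves out plaque spots in clusters with fewer than 5 unmarked spots and kept 21 of 22, 42 of 44, 19 of 25 and 11 of 12. In Cortex OLF those left out were of cluster 11, 1 in 5xFAD-Dp16 and 2 in 5xFAD. In Cortex CTXsp they were 5 of cluster 11 and 1 of cluster 2 in 5xFAD-Dp16, and 1 of cluster 13 in 5xFAD. Weighted values therefore reflect both the loss of these spots and the weights. The list medians of plaque-associated microglia then were 0.45, 0.53, 1.11 and 0.06, and Cst7 had 0.97, 1.58, 2.92 and 1.20. For Tyrobp the 4 values were 1.00, 1.02, 1.82 and 0.78, and for Thy1 -0.16, 0.35, 1.31 and 1.00. 6330403K07Rik had -0.42, -0.50, -0.55 and -0.78, Pnoc in Cortex CTXsp of 5xFAD-Dp16 had 0.05, and Cartpt in Cortex CTXsp had -2.53 in 5xFAD-Dp16 and 0.01 in 5xFAD. The clusters were made from the same counts. Without plaques, cluster 0 held 143 of 225 spots of Cortex OLF and 121 of 151 of Cortex CTXsp in Dp16. In wild-type no spot of either region was in cluster 0.

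Markers of blood and of tissue outside the cortex differed with the marks as well. The 4 haemoglobin genes were lower in plaque spots in every comparison, with summed levels of 166 CPM against 428 CPM and 50.4 against 232 CPM in Cortex OLF of 5xFAD-Dp16 and 5xFAD. In Cortex CTXsp they had 222 against 378 CPM in 5xFAD-Dp16 and 106 against 1577 CPM in 5xFAD. In that 5xFAD group 1 unmarked spot held 90.9% of the Hba-a1 UMIs, and the list median weighted by cluster was 0.06 in place of -3.87. Neighbour spots summed to 750 and 412 CPM of the blood list in Cortex OLF of 5xFAD-Dp16 and 5xFAD. In Cortex CTXsp they summed to 3487 and 96.8 CPM, so in no comparison did they lie between the other kinds. Choroid plexus genes, of which Ttr is by far the most abundant, summed to 5398 CPM in plaque against 2583 CPM in unmarked spots of Cortex OLF in 5xFAD-Dp16 and 16763 against 5658 CPM in 5xFAD. In Cortex CTXsp they summed to 6089.6 against 10692 CPM in 5xFAD-Dp16 and 62803 against 39444 CPM in 5xFAD. The sections without plaques differed widely from each other, with 16842 CPM in Cortex OLF and 48129 CPM in Cortex CTXsp of Dp16. Wild-type had 126 CPM in Cortex OLF and 102 CPM in Cortex CTXsp. Border macrophage genes had no member at 20 CPM and summed to 7.66 to 15.9 CPM in plaque spots against 18.2 to 26.5 CPM in unmarked spots, and 5 to 8 of the 10 had no UMI in a plaque sum. T and B cell genes, with 1 of 17 at that level, summed to 25.9 CPM in plaque against 22.5 CPM in unmarked spots of Cortex OLF in 5xFAD-Dp16 and to 76.9 against 21.1 CPM in 5xFAD, a log2 ratio of 1.87 (1.31 to 2.43) in 5xFAD. In Cortex CTXsp they summed to 38.3 against 11.6 CPM in 5xFAD-Dp16, a ratio of 1.72 (0.66 to 2.75), and to 65.5 against 64.1 CPM in 5xFAD. Without plaques the T and B cell genes summed to 9.76 CPM in Dp16 and 232 CPM in wild-type in Cortex OLF. In Cortex CTXsp they summed to 13.9 CPM in Dp16 and 18.1 CPM in wild-type. Of the 15 T and B cell genes with counts deposited, 9 to 13 had no UMI in a plaque sum. The part of these markers in the differences above was not tested.

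Of the remaining lists, that of the oligodendrocyte precursors, with 5 measured genes, had a median below 0 in all 4 comparisons. Only 1 of the 5 was lower in all 4. The median of all genes was below 0 too, except in Cortex OLF of 5xFAD-Dp16. There the precursor list summed to 523 CPM in plaque against 499 CPM in unmarked spots, and its median weighted by cluster was 0.09. The 20 myelin genes had medians of 0.08 and 0.15 in Cortex OLF and -0.27 and -0.37 in Cortex CTXsp of 5xFAD-Dp16 and 5xFAD, and Mbp, myelin basic protein, had ratios of 0.17, 0.06, -0.28 and -0.32. Inhibitory neuron genes had 0.04, -0.44, 0.08 and -0.15, and striatal projection neuron genes -0.03, 0.43, -0.36 and -0.60. Heat shock and unfolded protein genes had 0.13, -0.05, -0.12 and -0.05, and immediate early genes 0.19, 0.04, -0.15 and 0.31. Cholesterol synthesis genes had 0.33, -0.27, -0.03 and 0.05, and lipid carrier genes -0.15, 0.00, 0.29 and 0.06. Vascular genes had -0.53, -0.37, 0.23 and 0.20, meningeal fibroblast genes -0.35, 0.42, 0.20 and 1.02, and oligodendrocyte precursor genes -0.07, -0.25, -0.16 and -0.38. The regional lists had 0.03, -0.15, -0.04 and 0.00 (piriform), 0.33, -0.29, -0.09 and -0.28 (claustrum and subplate) and -0.12, -0.05, 0.35 and 0.09 (basolateral amygdala).

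Elsewhere in the same sections the medians of the plaque-associated microglial list were above 0 as well. Plaque spots of the neocortical labels, weighted by label, had list medians of 0.64 in 5xFAD-Dp16 (5 labels) and 1.02 in 5xFAD (4 labels). Those of the hippocampus had 0.89 and 0.80, and those of the thalamus 1.28 and 0.91. Of the 13 genes past the fold in all 4 comparisons here, Arpc1b (-1.35), Siglech (-0.76), Crlf2 (-0.68) and Mfap3l (-0.57) were below 0 in the hippocampus of 5xFAD. That group had only 13 plaque spots. In the hippocampus of 5xFAD-Dp16, with 49 plaque spots, these genes had 0.55, 0.51, 1.16 and 0.96 in the same order. Mfap3l was also below 0 in the neocortical labels, at -0.22 in 5xFAD-Dp16 and -0.79 in 5xFAD. Cortex CTXsp held both the highest of these 10 medians (1.67, 5xFAD-Dp16) and the lowest (0.10, 5xFAD). 6330403K07Rik had ratios of 0.06 and -0.05 in the neocortical labels, -0.07 and -0.19 in the hippocampus and -1.10 and -0.52 in the thalamus, against -0.86 to -1.35 here. The blood list had medians of -0.74 and 1.95 (neocortical labels), -1.83 and -0.27 (hippocampus) and 0.69 and 2.21 (thalamus) in 5xFAD-Dp16 and 5xFAD. Thy1 had 0.36 and 0.56 in the neocortical labels, 0.51 and 1.13 in the hippocampus and 0.30 and 0.33 in the thalamus of 5xFAD-Dp16 and 5xFAD, against 1.70 and 1.12 in Cortex CTXsp. With 1 section per genotype these differences between regions and between sections were not tested.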

How the data were processed

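Visium spots of 4 mouse hemisphere sections were analysed. Per the submitters' processing notes the counts were made with Space Ranger and Seurat on mm10; versions are not given here. The authors deposited UMI counts of 19090 genes in 10549 spots, and a table with each spot's section, region, plaque and neighbour marks, expression cluster, total count and percent of mitochondrial UMIs (percent not used in a result). Matrix totals equalled the deposited totals in all 10549 spots.

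UMIs were summed over the plaque, neighbour or unmarked spots of a region and section and scaled to CPM of the sum. Log2 ratios have exact conditional binomial intervals and CPM has exact Poisson intervals (95%). A sum of 0 was set to 3 counts, as a bound. Genes needed a mean of 20 CPM over the 8 plaque and unmarked sums, which left 6087, and the fold used was 1.5. Shares of spots come from counts thinned to 5000 UMIs, with Clopper-Pearson intervals. No spot was filtered, and a doublet caller does not apply to spots. Python 3.11.15 with numpy 2.4.6, pandas 2.3.3 and scipy 1.17.1 was used, and edgeR 4.0.16 in R 4.3.3 for the TMM factors of 1 alternative. The interval code was tested on simulated data. Gene positions are those of RefSeq GRCm38.p6, in which 17874 symbols matched.

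The named genes were the 20 highest and 10 lowest by the ratio closest to the opposite direction over the 4 comparisons, the next 5 of each kind per region, of each of 27 lists the 3 most abundant members and those with the highest and lowest mean ratio, and a set of microglial, astrocyte and neuronal genes named in every case, with the genes whose shares were computed. Csf1r, Ctss and Spp1 were named from the lists after their values were seen. The spots and lists were chosen with earlier results of these data known. Alternatives covered the level minimum, the fold, the scaling, the weight of spots, the spots compared with, the expression cluster and the depth of spots, and without the highest plaque spot or clusters 12 and 13 as additions.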

Additional observations from a re-analysis of the deposited data

Results flagged for a closer look

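Several genes differed in sign between the 5xFAD-Dp16 and the 5xFAD section under the same plaque contrast, with counting intervals that exclude 0 on opposite sides. With 1 section per genotype the difference between sections was not tested for any of them, and all values are log2 ratios of plaque over unmarked CPM.

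In Cortex OLF the astrocyte genes were Gfap, at -0.75 in 5xFAD-Dp16 and 0.69 in 5xFAD, and Apoe, at -0.31 in 5xFAD-Dp16 and 0.15 in 5xFAD. Neuropeptide genes made up the rest. Sst, somatostatin of inhibitory neurons, had 0.63 in 5xFAD-Dp16 and -1.005 in 5xFAD. Penk, the enkephalin precursor, had -0.63 in 5xFAD-Dp16 and 1.55 in 5xFAD. Cartpt had -1.16 in 5xFAD-Dp16 and 1.08 in 5xFAD, and Cck, cholecystokinin, had 0.14 in 5xFAD-Dp16 and -0.18 in 5xFAD. Weighted by cluster, Cartpt in 5xFAD-Dp16 was at 0.058, so its sign no longer differed. Beside them, the 7 striatal projection neuron genes at level had medians of -0.03 in 5xFAD-Dp16 and 0.43 in 5xFAD.

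In Cortex CTXsp Sst had 1.05 in 5xFAD-Dp16 and -0.50 in 5xFAD, which is the same sign in each section as in Cortex OLF. Its summed level there was 1970.3 CPM in plaque against 953 CPM in unmarked spots of 5xFAD-Dp16, and 297 against 419 CPM in 5xFAD. The other genes of that region were those rich in choroid plexus or meninges, and an iron store gene that is also in the plaque-associated microglial list. Ttr, transthyretin, had -0.81 in 5xFAD-Dp16 and 0.67 in 5xFAD. Enpp2, autotaxin, had -0.87 in 5xFAD-Dp16 and 0.45 in 5xFAD. Ecrg4, an augurin precursor, had -1.43 in 5xFAD-Dp16 and 0.49 in 5xFAD, and Ptgds had -0.76 in 5xFAD-Dp16 and 0.51 in 5xFAD. Fth1, ferritin heavy chain, had 0.15 in 5xFAD-Dp16 and -0.12 in 5xFAD. The signs no longer differed for Enpp2 weighted by cluster, at -0.069 in 5xFAD, or for Fth1 as a mean over spots, at -0.024 in 5xFAD-Dp16. The choroid plexus list summed to 6089.6 CPM in plaque and 10692 CPM in unmarked spots of 5xFAD-Dp16, and to 62803 and 39444 CPM in 5xFAD. Its part in these differences was not tested.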

How the results depend on the processing

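The counts of genes past the fold in both sections moved with every threshold. In Cortex OLF the 70 higher genes became 247 with a minimum of 5 CPM, 23 with 50 CPM, 24 with a fold of 2 and 28 when unmarked spots were weighted by expression cluster. The 49 lower genes became 287, 17, 8 and 32 in the same order, and 31 with neighbours included among the unmarked spots. In Cortex CTXsp the 117 higher genes became 410 (5 CPM), 40 (50 CPM) and 21 (fold of 2), and the 227 lower genes became 568, 51 and 57. The median of the plaque-associated microglial list in Cortex OLF of 5xFAD-Dp16 was 0.45 weighted by cluster and 0.50 without its highest plaque spot, in place of 1.00. In Cortex OLF of 5xFAD it was 0.53 weighted by cluster, in place of 0.93. Weighting by cluster also left out the plaque spots of cluster 11 in both groups. Over all alternatives the list median stayed above 0 in those groups and in Cortex CTXsp of 5xFAD-Dp16 (1.11 to 1.74). In Cortex CTXsp of 5xFAD it ran between -0.02 and 0.20.

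Among values whose interval excluded 0, weighting by cluster gave the other sign in Cortex CTXsp of 5xFAD-Dp16 for the myelin list (0.55), Mbp (0.42), Apod (0.36), Gad1 (0.17), Pnoc (0.051) and Slc17a7 (-0.21). In Cortex CTXsp of 5xFAD it did so for the blood list and Hba-a1 (0.057 each), Cartpt (0.014) and Enpp2 (-0.069). In Cortex OLF of 5xFAD-Dp16 it did so for Ttr (-0.15), Ecrg4 (-0.092), Cartpt (0.058) and Laptm5 (-0.0020). Values whose interval included 0 did so too, in Cortex OLF of 5xFAD-Dp16 for the choroid plexus (-0.15), homeostatic microglia (-0.0023) and immediate early (-0.20) lists and in Cortex CTXsp of 5xFAD-Dp16 for the striatal (0.13), vascular (-0.23) and basolateral amygdala (-0.036) lists, as did Thy1 in Cortex OLF of 5xFAD-Dp16 (-0.16) and some medians closer to 0. Without the highest plaque spot Laptm5 there was at -0.087. As a mean over spots Fth1 in Cortex CTXsp of 5xFAD-Dp16 was at -0.024. TMM factors lowered every ratio of Cortex OLF in 5xFAD-Dp16 by 0.11 (log2), and the oxidative phosphorylation list there was at -0.028. The cause was not tested for any of these. Of 376 list medians and gene ratios, 267 stayed within their own interval (for lists, the order-statistic interval of the median over members, or their range) when weighted by cluster, 371 with TMM factors, 351 as a mean over spots, 339 with neighbours included, 373 without mitochondrial, ribosomal and haemoglobin genes in the totals and all 376 with spots of at least 3000 UMIs only. The settings without the highest plaque spot (345 of 376) and without clusters 12 and 13 (368 of 376) were chosen after seeing the data. Shares of spots moved in 61 of 80 cases unthinned and in 69 with at least 2 UMIs required.

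The smallest group, 12 plaque spots of Cortex CTXsp in 5xFAD, limits what can be seen there: genes near the 20 CPM minimum rest on a few UMIs. No paired analysis was possible because each genotype has 1 section and no test was made.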
